A study of Saccharomyces cerevisiae with 4 samples.

Results

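The genes described here encode enzymes of amino acid synthesis and a mitochondrial ornithine carrier in the budding yeast Saccharomyces cerevisiae, other than those for the sulfur amino acids, together with their shared transcriptional activator GCN4. They were chosen by gene symbol from known function, with earlier results of these data known, and cover 12 pathway groups and the activator. Of the 54 genes listed, 53 had a probe set of their own, out of 5656 genes with one in the whole series; ARG5,6 was not analysed here, since the annotation used lists no probe set under its gene identifier. Each of the 53 was read by 1 probe set, and all 53 lay above the detection floor on all 4 arrays, so no member was lost to a filter on low values. The 4 strains were a ubp10 sir4 double null, a ubp10 null, a sir4 null and the wild type W303-1A, each growing exponentially, with total RNA on 1 Affymetrix Yeast Genome S98 array per strain. With 1 array per strain there is no replicate, no error and no p-value, and precision is limited by the number of arrays. The labels name W303-1A for the wild type only, and the culture medium and the markers used to make the deletions are not given in the sources used here. W303-1A is known as a laboratory haploid of mating type a with auxotrophic mutations in genes of histidine, leucine and tryptophan synthesis; those mutated genes are not among the members.

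Yeast makes its amino acids from a few carbon skeletons of central metabolism and from ammonia fixed as glutamate and glutamine. Most of the enzyme genes carry promoter sites for Gcn4, whose synthesis is controlled mainly at translation: when uncharged tRNA activates the kinase Gcn2, GCN4 mRNA is translated more and the pathways are induced together, the response known as general amino acid control. Single pathways have their own controls as well, such as the arginine repressor complex, Leu3 for the branched-chain amino acids and Lys14 for lysine. UBP10 encodes a deubiquitinating enzyme acting on histone H2B. SIR4 encodes a structural protein of silent chromatin at telomeres and the silent mating cassettes.

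The values are intensities on a linear scale in the units of the deposited table, where probe sets of different genes are not comparable in level. Values under 6.67 units, which is 3 times the noise SD, counted as the floor. A ratio between arrays is given relative to the median ratio of all genes above the floor on both, as a log2 value or a fold; that median was -0.04 for the ubp10 null, 0.49 for the sir4-labelled array and 0.54 for the double null over the wild type (log2), 0.50 for the double null over the ubp10 null and 0.01 over the sir4-labelled array. A gene was judged where its brighter value reached 13.3 units, and called higher or lower at a ratio of at least 2. UBP10 itself was at the floor in the double null and the ubp10 null, against 269.2 units on the sir4-labelled array and 247.9 in the wild type. SIR4 was too dim to check its deletion, with 15.5 units in the double null, 6.67 (the floor) in the ubp10 null, 20.7 on the sir4-labelled array and 10.8 in the wild type, so that array is named by its label, as the sir4-labelled array. On that array the 3′ probe set of ACT1 was 86.9 times as bright as the 5′ probe set, against 1.1 to 1.5 times on the others; the place of each member's probe set along its transcript was not used here, and the part of this difference in the members' values was not tested. Loss of SIR4 is known to derepress the silent mating cassettes, which shuts off a-specific genes in a cells. The a-specific genes MFA1 and MFA2 read 18.6 and 14.8 units in the double null, 482.6 and 1195.7 in the ubp10 null, 404.6 and 761.0 on the sir4-labelled array and 607.0 and 1117.4 in the wild type. The alpha-specific MF(ALPHA)1, MF(ALPHA)2 and STE3 read 6.9, 6.7 and 6.7 units on the sir4-labelled array, at or near the floor. They read 8.4, 6.7 and 23.6 units in the double null, 6.7, 8.4 and 16.3 in the ubp10 null and 6.7, 7.7 and 6.7 in the wild type. MF(ALPHA)1 and MF(ALPHA)2 thus do not tell the arrays apart. SAG1, also alpha-specific, read 43.1 units there, against 30.0 in the double null, 22.8 in the ubp10 null and 27.3 in the wild type. The sir4-labelled array kept the a-specific MFA1 and MFA2 on. That goes against its label, and results that rest on it carry that doubt. The other comparisons use it through quantile normalization, cyclic loess and the mean intensity over the 4 arrays. An array level is relative to the RNA hybridised, so less of a transcript per cell and more of other RNA cannot be told apart.

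Compared with the wild type, most amino acid synthesis genes read lower in the ubp10 null, and 12 of them passed the calling ratio. These 12 are 22.6% of the members and 1 member was called higher, where among all 4657 genes judged 9.28% were lower and 12.0% higher. The median log2 ratio of the members was -0.60, against 0.01 for all genes judged, and 43 of 53 lay below 0. The largest of the lower calls were TRP4 (3.20-fold), ARG3 (3.14-fold) and TRP2 (3.04-fold), in tryptophan and arginine synthesis, and the call in the other direction was SER3 (2.23-fold higher), in serine synthesis. On the values as deposited, 30 of the 53 had their lowest value of the 4 arrays in the ubp10 null, and 31 had their highest in the wild type. That order depends on the scale: by the ratios relative to the median ratio, 23 were lowest in the double null and 18 in the ubp10 null, with 38 highest in the wild type. Units below are as deposited, and orders of the arrays read from them do not carry the centring. Counts by pathway below rest on few genes each, so a count of 0 or 1 does not set a group apart from all genes.

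Brightness separated the ubp10 null from the other mutants. Among the 982 genes with a mean of at least 200 units over the 4 arrays, 6.52% were called lower in the ubp10 null and 4.07% higher. Of the 42 members that bright, 8 were lower and 0 higher. The brightest of 20 equal bins of genes had a median log2 ratio of 0.00 in the ubp10 null, which the members' median lay below. The dimmest bin, at 7.9 to 15.5 units, had a median of 0.88 in the ubp10 null. At 200 units or more the median was -0.56 for members and -0.06 for all genes. On the sir4-labelled array and in the double null the brightest bin had medians of -1.05 and -1.11, and the 98th percentile of intensity was 1028.5 and 989.5 units there, against 1559.4 in the ubp10 null and 1479.7 in the wild type. The amino acid genes are mostly bright. Their ratios in those 2 mutants are therefore read below beside genes at 200 units or more, the brightest bin and cyclic loess. Cyclic loess is a scaling that removes a trend with intensity. The set at 200 units or more was not matched to the members in brightness. A larger share of lower calls among members than in that set does not separate them from the trend.

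**Figure D1:**
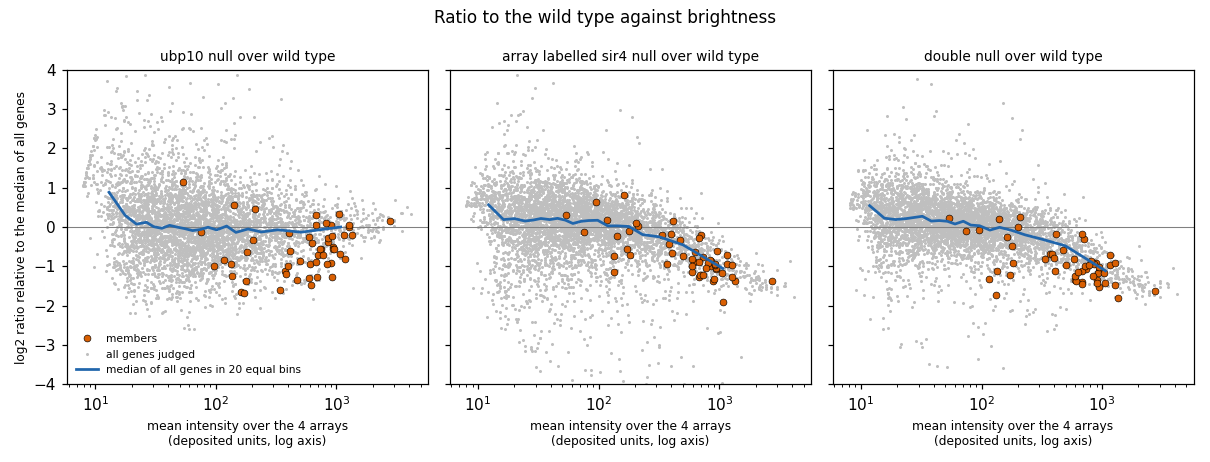
Log2 ratio to the wild type (y axis, relative to the median of all genes, values beyond 4 in either direction not drawn) against mean intensity over the 4 arrays (x axis, deposited units, log scale), for the 53 members (orange) and all genes judged (grey), with the median in 20 equal bins of genes (blue). In the ubp10 null the brightest bin lies at 0.00 and most members lie under the line; on the sir4-labelled array and in the double null the line itself drops to -1.05 and -1.11 at the bright end, where most members are.

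**Figure D2:**
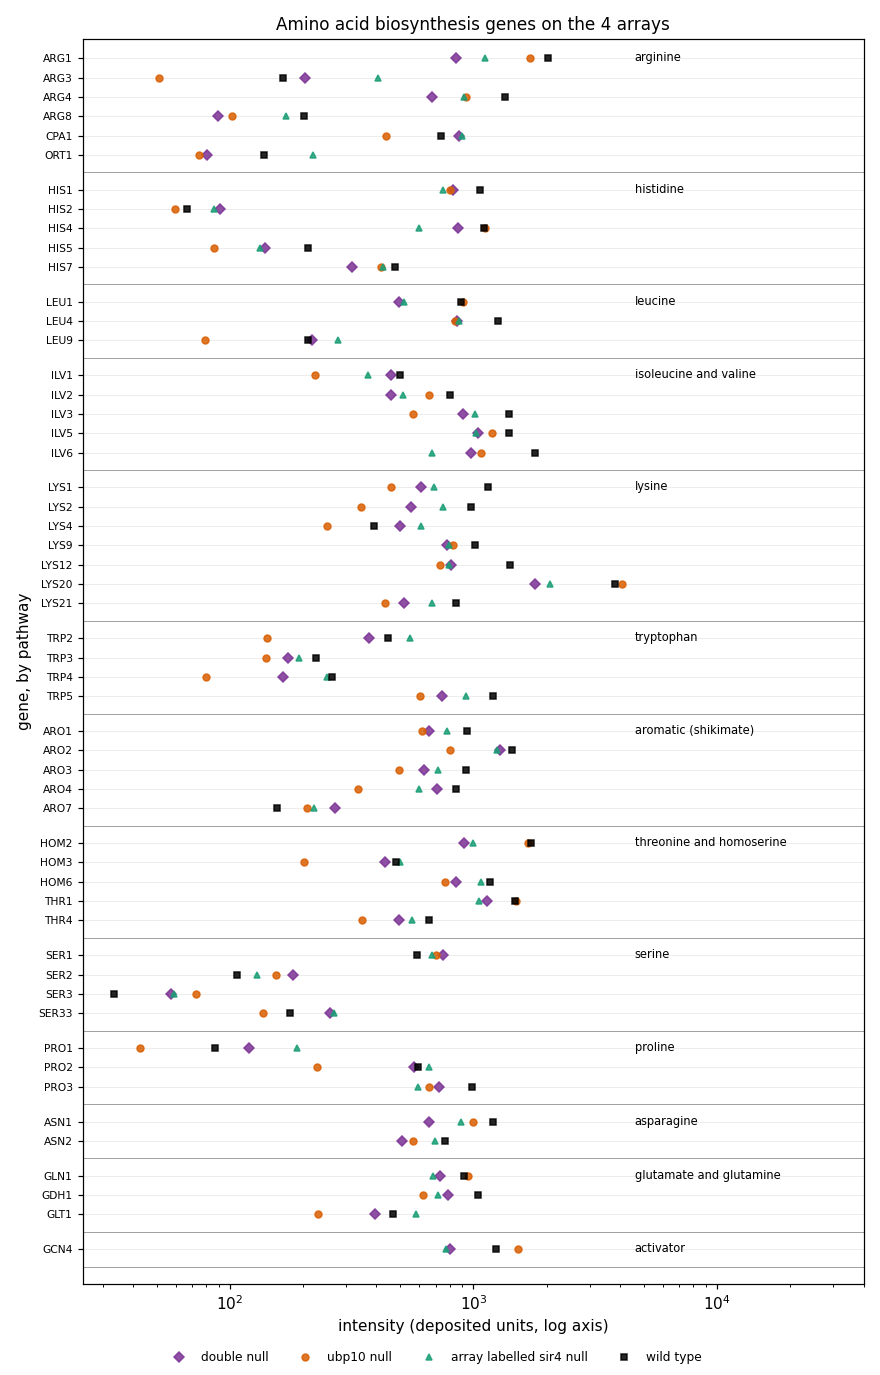
Intensity (x axis, deposited units, log scale) of each of the 53 members (rows, by pathway) in the double null, the ubp10 null, on the sir4-labelled array and in the wild type, 1 point per array. In deposited units the ubp10 null holds the lowest value of 30 members and the wild type the highest of 31, whereas relative to the median ratio the double null is lowest for 23 and the ubp10 null for 18; levels are comparable only along a row.

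The tryptophan genes were the group furthest down in the ubp10 null, with 2 of 4 called lower and a median log2 ratio of -1.28. TRP4, which encodes anthranilate phosphoribosyltransferase, read 165.0 units in the double null, 80.0 in the ubp10 null, 251.3 on the sir4-labelled array and 263.5 in the wild type. It lay 3.20-fold lower in the ubp10 null, the array with its lowest value. TRP2, a subunit of anthranilate synthase at the entry to the pathway, read 372.1 units in the double null, 142.3 in the ubp10 null, 548.5 on the sir4-labelled array and 444.5 in the wild type, which put the ubp10 null 3.04-fold below the wild type while the other 3 arrays stayed closer together. TRP5, tryptophan synthase, read 741.9 units in the double null, 603.8 in the ubp10 null, 936.9 on the sir4-labelled array and 1199.0 in the wild type, with a log2 ratio of -0.95 in the ubp10 null, just short of a call. TRP3, the other subunit of anthranilate synthase, was called in none of the 5 comparisons; its log2 ratio in the ubp10 null was -0.64. Both ubp10 calls in this group held under every alternative run.

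The shikimate pathway, which supplies chorismate to all aromatic amino acids, had 1 of 5 genes called lower in the ubp10 null and a median log2 ratio of -0.81. Its first step is run by a pair of isoenzymes, of which Aro4 is inhibited by tyrosine and Aro3 by phenylalanine. ARO4 read 706.4 units in the double null, 336.4 in the ubp10 null, 598.5 on the sir4-labelled array and 848.5 in the wild type, and was 2.45-fold lower in the ubp10 null. ARO3 read 628.8 units in the double null, 494.6 in the ubp10 null, 715.4 on the sir4-labelled array and 935.8 in the wild type, and at a log2 ratio of -0.88 it was not called. The pair thus differed by 0.41 log2 units in that comparison, and ARO4 lost its call under quantile normalization (-0.99) but not with the sir4-labelled array left out of it (-1.05). ARO1, the multifunctional enzyme of the middle steps, read 657.3 units in the double null, 617.0 in the ubp10 null, 782.9 on the sir4-labelled array and 940.4 in the wild type. ARO2, chorismate synthase, read 1284.6 units in the double null, 799.8 in the ubp10 null, 1250.9 on the sir4-labelled array and 1444.3 in the wild type, and its log2 ratio in the ubp10 null was -0.81. ARO7, chorismate mutase at the branch to phenylalanine and tyrosine, stood apart from the other 4, with its lowest value in the wild type and a log2 ratio of 0.46 in the ubp10 null that was not called. ARO4 and HIS7 are next to each other on chromosome II, and their ratios in the ubp10 null were -1.29 and -0.14.

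The lysine pathway had 2 of 7 genes called lower in the ubp10 null, both in its later steps, with a median log2 ratio of -0.91. LYS2, alpha-aminoadipate reductase, read 552.9 units in the double null, 347.1 in the ubp10 null, 747.0 on the sir4-labelled array and 982.5 in the wild type, and was 2.75-fold lower in the ubp10 null. LYS1, the saccharopine dehydrogenase of the last step, read 610.1 units in the double null, 458.1 in the ubp10 null, 689.3 on the sir4-labelled array and 1144.0 in the wild type, and was 2.43-fold lower; its call was lost under quantile normalization with the sir4-labelled array (-0.94) and without it (-0.99). LYS12, homoisocitrate dehydrogenase, read 807.6 units in the double null, 731.1 in the ubp10 null, 793.6 on the sir4-labelled array and 1412.8 in the wild type, with a log2 ratio of -0.91 in the ubp10 null. The paralogs LYS20 and LYS21 both encode homocitrate synthase, the first enzyme, and their ratios lay apart. LYS20 read 1790.3 units in the double null, 4088.1 in the ubp10 null, 2066.2 on the sir4-labelled array and 3809.4 in the wild type, so the ubp10 null had its highest value. LYS21 read 518.2 units in the double null, 431.9 in the ubp10 null, 676.4 on the sir4-labelled array and 848.4 in the wild type; the ubp10 null was lowest in these units, and the double null by the ratios to the wild type (-1.25 against -0.93). Their log2 ratios in the ubp10 null differed by 1.08. A probe set listed for both genes read 1272.9 units in the double null, 2476.3 in the ubp10 null, 1402.8 on the sir4-labelled array and 2780.1 in the wild type, and the near-identical copies can share signal on their own probe sets too. LYS4 and LYS9, homoaconitase and the other saccharopine dehydrogenase, were called in none of the 5 comparisons and had log2 ratios of -0.60 and -0.27 in the ubp10 null.

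All 6 arginine genes measured lay below 0 in the ubp10 null, with a median log2 ratio of -0.77, and 1 was called. ARG3, the ornithine carbamoyltransferase, read 203.6 units in the double null, 51.3 in the ubp10 null, 407.3 on the sir4-labelled array and 165.9 in the wild type. Its ubp10 null value was 3.14-fold lower than the wild type, while the sir4-labelled array had its highest value, a spread across the arrays that exceeded the calling ratio in 3 of the 5 comparisons. ORT1, the carrier that exports ornithine from mitochondria, read 80.5 units in the double null, 74.8 in the ubp10 null, 220.5 on the sir4-labelled array and 137.5 in the wild type. The ubp10 null and the double null were lowest in these units, and its log2 ratio in the ubp10 null, -0.84, was not called. ARG8, the mitochondrial acetylornithine aminotransferase, read 89.3 units in the double null, 102.3 in the ubp10 null, 169.4 on the sir4-labelled array and 202.0 in the wild type, with the same 2 arrays lowest. Its log2 ratio in the ubp10 null was -0.94, also not called. ARG1 and ARG4 run the last steps, from citrulline to arginine. ARG1 read 844.7 units in the double null, 1714.7 in the ubp10 null, 1112.7 on the sir4-labelled array and 2029.0 in the wild type, and its log2 ratio in the ubp10 null was -0.20. ARG4 read 679.2 units in the double null, 928.4 in the ubp10 null, 913.6 on the sir4-labelled array and 1349.9 in the wild type, and its log2 ratio was -0.50; in neither case was the ubp10 null called. CPA1, a subunit of the carbamoyl phosphate synthetase of this pathway, was called in none of the 5 comparisons, at -0.71 in the ubp10 null.

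The branched-chain pathways had 3 of 8 genes called lower in the ubp10 null. For isoleucine and valine the median log2 ratio was -0.70, and for leucine -0.55. ILV1, threonine deaminase, the committed step to isoleucine, read 456.9 units in the double null, 223.8 in the ubp10 null, 371.0 on the sir4-labelled array and 501.7 in the wild type. ILV3, dihydroxyacid dehydratase, read 908.5 units in the double null, 567.3 in the ubp10 null, 1013.9 on the sir4-labelled array and 1396.6 in the wild type. They were 2.18-fold and 2.39-fold lower in the ubp10 null, and both calls were lost under quantile normalization (-0.88 and -0.96), that of ILV3 not where the sir4-labelled array was left out of it (-1.01). ILV2 and ILV6 are the catalytic and regulatory subunits of acetolactate synthase. ILV2 read 459.6 units in the double null, 658.3 in the ubp10 null, 512.1 on the sir4-labelled array and 801.3 in the wild type. ILV6 read 978.4 units in the double null, 1079.5 in the ubp10 null, 676.7 on the sir4-labelled array and 1798.2 in the wild type, and had its lowest value on the sir4-labelled array. Neither was called in the ubp10 null (-0.24 and -0.70), and ILV5, the reductoisomerase between them and ILV3, was called in none of the 5 comparisons, at -0.19 in the ubp10 null.

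In leucine synthesis the paralogs LEU4 and LEU9, both alpha-isopropylmalate synthases, differed. LEU9 read 218.3 units in the double null, 78.9 in the ubp10 null, 277.3 on the sir4-labelled array and 210.1 in the wild type, 2.59-fold lower in the ubp10 null. LEU4, the main isoenzyme, read 857.3 units in the double null, 838.7 in the ubp10 null, 870.7 on the sir4-labelled array and 1265.7 in the wild type, and all mutants lay close together in these units, below the wild type, with a log2 ratio of -0.55 in the ubp10 null. The pair's ratios were 0.82 log2 units apart there. LEU1, isopropylmalate isomerase, read 497.2 units in the double null, 905.1 in the ubp10 null, 519.6 on the sir4-labelled array and 890.4 in the wild type, level between the ubp10 null and the wild type (0.06).

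The histidine genes among the members lay mostly close to the wild type in the ubp10 null, with 1 of 5 called lower and a median log2 ratio of -0.14. HIS6, a histidine gene outside the members, was 2.53-fold lower there and is given below. HIS5, histidinol-phosphate aminotransferase, read 139.6 units in the double null, 85.8 in the ubp10 null, 132.6 on the sir4-labelled array and 209.0 in the wild type. It was 2.37-fold lower in the ubp10 null, and the wild type stood above all mutants. HIS4, a multifunctional enzyme of early and late steps and a classical Gcn4 target, read 861.5 units in the double null, 1114.4 in the ubp10 null, 599.6 on the sir4-labelled array and 1110.5 in the wild type, with a log2 ratio of 0.05 in the ubp10 null. HIS7, imidazole glycerol phosphate synthase, read 318.9 units in the double null, 419.4 in the ubp10 null, 426.6 on the sir4-labelled array and 474.7 in the wild type, and its log2 ratio was -0.14. HIS1 and HIS2, for the first step and the phosphatase, were called in none of the 5 comparisons, at -0.37 and -0.12 in the ubp10 null.

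Homoserine and threonine genes had 1 of 5 called lower in the ubp10 null, with a median log2 ratio of -0.56. HOM3, aspartate kinase, the feedback-controlled entry step, read 434.5 units in the double null, 202.3 in the ubp10 null, 499.1 on the sir4-labelled array and 479.0 in the wild type, 2.30-fold lower in the ubp10 null, a call lost under quantile normalization (-0.97) but kept with the sir4-labelled array left out of it (-1.02). HOM2, aspartate semialdehyde dehydrogenase, read 913.4 units in the double null, 1670.2 in the ubp10 null, 1000.8 on the sir4-labelled array and 1723.5 in the wild type, so the ubp10 null and the wild type were close and the other arrays lower. HOM6, homoserine dehydrogenase, read 846.2 units in the double null, 768.1 in the ubp10 null, 1070.9 on the sir4-labelled array and 1168.3 in the wild type, and its log2 ratio in the ubp10 null was -0.56. THR1 and THR4, homoserine kinase and threonine synthase, were called in none of the 5 comparisons, at 0.06 and -0.87 in the ubp10 null.

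Proline genes all lay below 0 in the ubp10 null, with a median log2 ratio of -0.98 over 3 genes. PRO2, gamma-glutamyl phosphate reductase, read 572.3 units in the double null, 227.1 in the ubp10 null, 659.2 on the sir4-labelled array and 590.5 in the wild type, 2.53-fold lower in the ubp10 null, while the other 3 arrays lay between 572.3 and 659.2 units. PRO3, the reductase of the last step, read 724.3 units in the double null, 656.5 in the ubp10 null, 592.1 on the sir4-labelled array and 986.1 in the wild type, at -0.55 in the ubp10 null. PRO1, gamma-glutamyl kinase, was at -0.98 there, just short of a call.

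Serine genes lay on the other side of the wild type, with a median log2 ratio of 0.43 in the ubp10 null and 3 of 4 genes above 0. SER3, 3-phosphoglycerate dehydrogenase, known to be kept off in serine-rich medium by transcription of the noncoding SRG1 across its promoter, read 57.2 units in the double null, 72.8 in the ubp10 null, 58.9 on the sir4-labelled array and 33.6 in the wild type. All mutants lay above the wild type as deposited, and the ubp10 null, at 2.23-fold higher, was called, which held under each alternative run. Its paralog SER33 read 257.6 units in the double null, 136.7 in the ubp10 null, 266.8 on the sir4-labelled array and 177.2 in the wild type, with the ubp10 null lowest, and the pair's ratios there were 1.49 log2 units apart. SER1, phosphoserine aminotransferase, read 752.0 units in the double null, 701.8 in the ubp10 null, 674.6 on the sir4-labelled array and 585.0 in the wild type. SER2, the phosphatase of the last step, was called in none of the 5 comparisons, and the log2 ratios of SER1 and SER2 in the ubp10 null were 0.30 and 0.56.

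Of the genes that fix ammonia and make amides, 0 of 5 were called in the ubp10 null (no test was possible with 1 array). Over all genes judged 9.28% were lower and 12.0% higher, so a count of 0 among so few genes is near these shares. GDH1, the NADP-dependent glutamate dehydrogenase, read 789.1 units in the double null, 622.7 in the ubp10 null, 715.4 on the sir4-labelled array and 1048.4 in the wild type, with a log2 ratio of -0.71 in the ubp10 null. GLT1, glutamate synthase, was at -0.99, just short of a call, and GLN1, glutamine synthetase, at 0.10. The asparagine synthetase paralogs lay close together. ASN1 read 656.3 units in the double null, 997.8 in the ubp10 null, 886.1 on the sir4-labelled array and 1200.5 in the wild type. ASN2 read 508.3 units in the double null, 566.7 in the ubp10 null, 697.9 on the sir4-labelled array and 767.8 in the wild type, and in the ubp10 null the ratios were -0.23 and -0.40, 0.17 log2 units apart.

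GCN4 mRNA read higher than in the wild type, without a call, in the ubp10 null. It read 805.5 units in the double null, 1527.2 in the ubp10 null, 775.7 on the sir4-labelled array and 1241.2 in the wild type. Its log2 ratio in the ubp10 null was 0.34, where the members' median was -0.60, and it was not called. Since Gcn4 is controlled mainly at translation, its mRNA level is not a reading of its activity, which was not measured here.

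**Figure D3:**
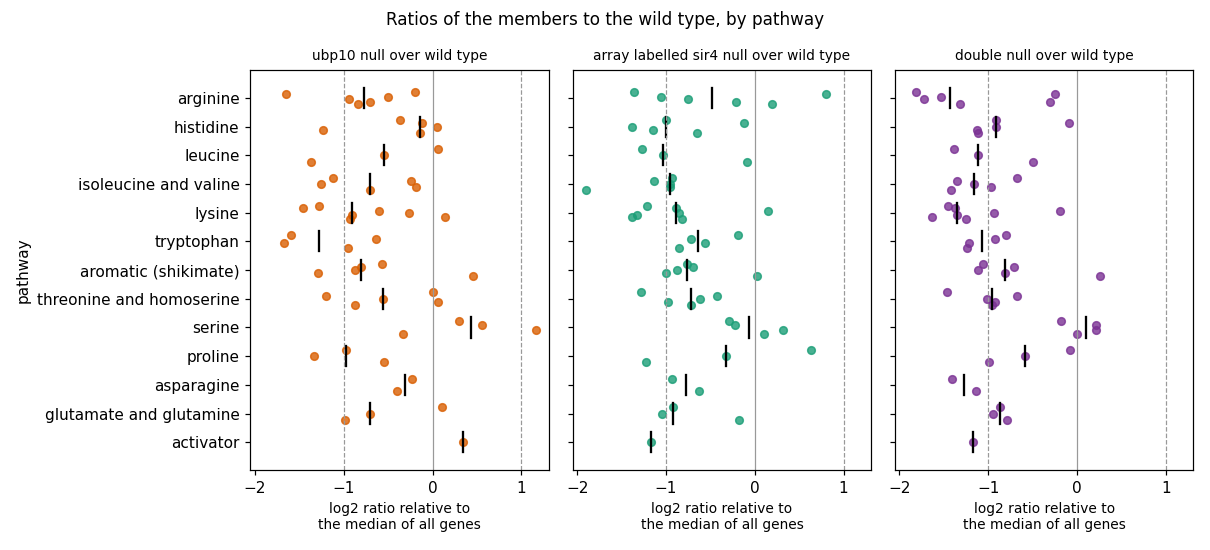
Log2 ratio to the wild type of each member (points, x axis, relative to the median of all genes) by pathway group (y axis) in the ubp10 null, on the sir4-labelled array and in the double null; black bars are group medians and dashed lines the calling ratio of 2. In the ubp10 null tryptophan genes have the lowest group median (-1.28) and serine genes lie at 0.43.

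On the sir4-labelled array the amino acid genes read lower relative to the median ratio, as did bright genes in general. Relative to the median ratio, 15 of 53 were called lower than in the wild type (28.3%) and 0 were called higher, where 11.4% of the 4786 genes judged were lower and 7.12% higher. Among genes with a mean of at least 200 units, however, 22.2% were lower, and of the 42 members that bright 14 were. The members' median log2 ratio was -0.85, against 0.03 for all genes judged and -1.05 for the brightest bin, which starts at 675.5 units. At 200 units or more it was -0.92 for members and -0.45 for all genes, so the members lay above the brightest genes and below the wider bright set. As deposited 1 member was called lower and 2 higher. Quantile normalization gave 2 lower and 1 higher, and cyclic loess 1 lower and 0 higher, where the members' median was -0.15. The lowest ratio was that of ILV6 (3.74-fold lower), which was called as deposited and under quantile normalization, but not under cyclic loess. HIS5 (2.22-fold lower) was called under quantile normalization and cyclic loess, but not as deposited. At the other end ARG3 had a log2 ratio of 0.80 and PRO1 of 0.63. GCN4 was 2.25-fold lower relative to the median ratio and not called under the other scalings; GDH1, PRO3 and HIS4, at 2.06-fold, 2.34-fold and 2.61-fold, were also called by the median ratio alone among the scalings.

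Relative to the median ratio the double null had more lower calls than the ubp10 null, but fewer as deposited (3 against 14), under quantile normalization (2 against 7) and under cyclic loess (4 against 12). Here too bright genes in general read lower. By the median ratio, 25 of 53 members were called lower in the double null (47.2%) and 0 higher, where 7.76% of the 4835 genes judged were lower and 5.03% higher. Among genes with a mean of at least 200 units 21.9% were lower, and of the 42 members that bright 21 were. The members' median log2 ratio was -0.97, against 0.03 for all genes judged and -1.11 for the brightest bin, which starts at 675.1 units. At 200 units or more it was -1.0 for members and -0.48 for all genes. As deposited 3 members were called lower, under quantile normalization 2 and under cyclic loess 4, with 0 higher under each of these, and the members' median under cyclic loess was -0.23. ARG8 was the call that held under every alternative run, at 3.30-fold lower. Arginine genes had the lowest group median, -1.43 relative to the median ratio and -0.67 under cyclic loess, with ARG1 3.50-fold, ARG4 2.90-fold and ORT1 2.49-fold lower. ORT1 was also called under quantile normalization and cyclic loess, and ARG1 as deposited. TRP4 (2.33-fold) and HIS5 (2.18-fold) were also called under cyclic loess, and LYS20 (3.10-fold) as deposited. Both asparagine synthetase genes were called, ASN1 2.67-fold and ASN2 2.20-fold lower, but not under the other scalings. Serine genes again lay highest, with a group median of 0.10 and 0 of 4 called.

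**Figure D4:**
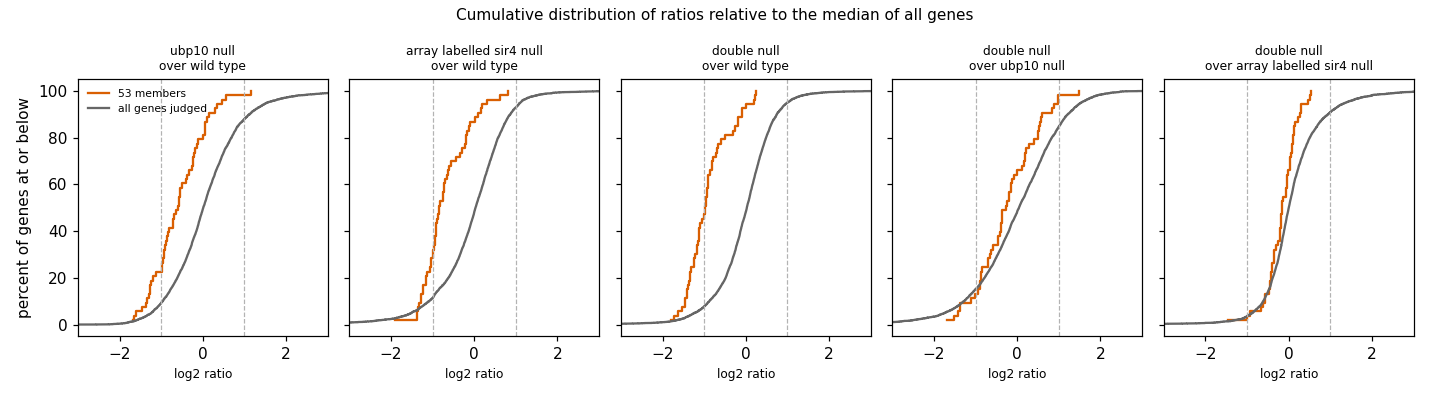
Percent of genes (y axis) at or below each log2 ratio (x axis, relative to the median of all genes) for the 53 members (orange) and all genes judged (grey) in the 5 comparisons; dashed lines mark the calling ratio of 2. The members' curve lies left of all genes in the 3 comparisons with the wild type (medians -0.60, -0.85 and -0.97) and close to it in the double null over the sir4-labelled array (-0.16).

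**Figure D5:**
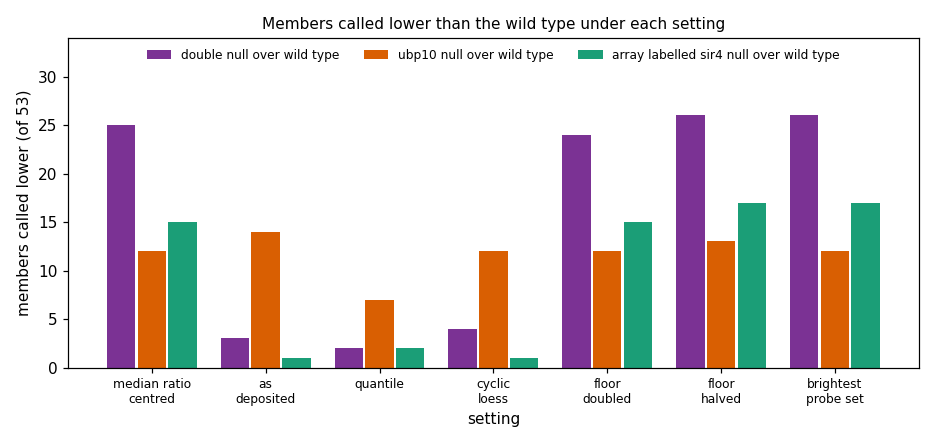
Number of the 53 members called lower than in the wild type (bars, y axis) in the double null, the ubp10 null and on the sir4-labelled array, for the median ratio centred and for 6 alternatives (x axis). The ubp10 null count stays between 7 and 14, while the double null count drops to 3, 2 and 4 and that of the sir4-labelled array to 1, 2 and 1 as deposited, with quantile normalization and with cyclic loess.

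The double null was then set against each single null; these comparisons share arrays with those above, so their values are not further evidence for them. Against the ubp10 null, 7 of 53 members were called lower (13.2%) and 1 higher, where 15.2% of the 4932 genes judged were lower and 15.3% higher, and 23.2% of genes with a mean of at least 200 units were lower; the members' shares did not exceed these. The direction of the members' median depended on the scaling: it was -0.27 relative to the median ratio, 0.23 as deposited, 0.19 under quantile normalization and 0.30 under cyclic loess. ARG3 was the higher call, at 203.6 units in the double null and 51.3 in the ubp10 null, 2.81-fold higher, and it held under every alternative run. PRO1 and LEU9, with log2 ratios of 0.98 and 0.97, came next without a call. Among the lower calls, LYS20 (3.23-fold) and ARG1 (2.87-fold) also passed as deposited, but 0 of the 7 did under quantile normalization or cyclic loess. Cyclic loess called 1 other member lower, SER3 (-1.13), and 6 higher, namely TRP2 as well as ARG3 (1.46), PRO2 (1.31), CPA1 (1.16), ARO4 (1.15) and ARO2 (1.10). The other lower calls by the median ratio were GCN4 (2.68-fold), HOM2 (2.58-fold), LEU1 (2.57-fold), ASN1 (2.15-fold) and ILV2 (2.02-fold).

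Against the sir4-labelled array the scalings nearly coincided, and few members were called. In the double null 2 of 53 members were called lower (3.77%) and 0 higher, where 3.63% of the 4897 genes judged were lower and 9.13% higher, so the count was at the background. ORT1 read 80.5 units in the double null and 220.5 on the sir4-labelled array, 2.75-fold lower, under every alternative run. ARG3 read 203.6 and 407.3 units on these arrays, 2.01-fold lower, a value so near the limit that it lost its call under cyclic loess (-0.99), with the brightest probe set per gene (-0.99), with the floor doubled and with a centring on bright genes. ARG8, at a log2 ratio of -0.93, was the next lowest, and all 6 arginine genes lay below 0 with a median of -0.68, against -0.16 for all members and 0.00 for all genes judged. Tryptophan genes had a median of -0.45 without a call. HIS4 and ILV6, at 0.52 and 0.53, were the highest members in this comparison.

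Genes that act beside the members were read in the same way. In the ubp10 null over the wild type, 9.28% of all genes judged were called lower and 12.0% higher. Of 17 further amino acid synthesis enzymes judged in the ubp10 null, 5 were called lower and 1 higher, with a median log2 ratio of -0.58. They included ARG7, the acetyltransferase of arginine synthesis (2.53-fold lower), and HIS6 of histidine synthesis (2.53-fold). AAT2, the aspartate aminotransferase (2.52-fold), and TYR1, prephenate dehydrogenase of tyrosine synthesis (2.33-fold), were also lower. HIS6 read 15.0 units in the ubp10 null, close to the detection limit, and 39.0 in the wild type. Of 12 regulators judged, 2 were called lower and 0 higher, with a median of -0.03 and 9.28% of all genes lower; the 2 were GCN3 (2.16-fold), a subunit of the translation factor through which Gcn2 acts, and GCN2 itself (2.10-fold), which read 15.1 units in the ubp10 null and 32.6 in the wild type, close to the detection limit. Of 17 amino acid permeases judged, 3 were called higher and 0 lower, with a median of -0.24, where 12.0% of all genes were higher. PUT4, the proline permease, was 2.27-fold higher and MUP3, a methionine permease, 3.43-fold. ALP1, the other, read 13.9 units in the ubp10 null and lay at the floor in the wild type. Sulfate and methionine genes had 6 of 27 lower and 3 higher, purine genes 1 of 21 lower and 2 higher, and tRNA synthetases 1 of 19 lower and 0 higher, with medians of 0.03, -0.17 and -0.29. Against the wild type, permeases were called lower in 7 of 17 in the double null, TAT1 by 6.84-fold and BAP2 by 5.54-fold, and in 9 of 16 on the sir4-labelled array, where these tyrosine and branched-chain permeases were 12.49-fold and 8.76-fold lower. Over all genes 7.76% and 11.4% were called lower in these comparisons, and the permease medians were -0.82 and -1.13 relative to the median ratio but -0.27 and -0.63 as deposited. No difference between these groups and the members was tested, since each strain had 1 array.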

How the data were processed

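Total RNA of 4 strains was read on S98 yeast arrays from Affymetrix, and the authors computed each deposited intensity with the MAS 4.0 software, per the labels; intensity is linear and can be negative. The scaling is not stated in the labels. Per array, the mean between the 2nd and 98th percentile was 99.5 to 100.1 units. Of 9335 probe sets, 60 were controls; of the other 9275, 6504 had 1 gene symbol in the platform annotation, all matched to the RefSeq gene table of assembly R64, 328 had several and 2443 were not listed.

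The noise SD, 2.22 units, came from the median size of the negative values, and values below 3 SDs were raised to that floor. Log2 values of a gene's probe sets were averaged. Calls used the ratio relative to the median ratio of genes that exceeded the floor on both, over all 5656 genes. The rule was run on simulated arrays with a uniform shift and no trend with brightness. That run cannot show how the rule behaves under such a trend. Named were GCN4, members called in any comparison, paralogs and, in each pathway, the member brightest in the wild type; the others are given by ratio and count. From the 6 other lists up to 4 called genes were eligible, and only some are named. The members and lists were chosen with earlier results of these data known. Alternatives were no centring, quantile normalization, cyclic loess, other floors, a ratio of 1.5 and the brightest probe set; the brightness limit of 200 units, a centring on genes that bright and a quantile normalization that left out the sir4-labelled array were choices made after seeing the data. Python 3.11.15, numpy 2.4.6, pandas 2.3.3, R 4.3.3 and limma 3.58.1 were used. No sequence was used here.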

Additional observations from a re-analysis of the deposited data

How the results depend on the processing

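With 1 array per strain no replicate could be left out. No paired analysis was possible because each strain had 1 array. The cause of the differences between settings was not tested. As deposited, the members' median log2 ratio was -0.36 on the sir4-labelled array and -0.43 in the double null over the wild type, and 0.23 in the double null over the ubp10 null, the opposite sign to -0.27. Under quantile normalization these medians were -0.11, -0.24 and 0.19, and -0.41 in the ubp10 null over the wild type. Under cyclic loess they were -0.15, -0.23 and 0.30 in the first 3 comparisons. Lower calls as deposited were 1 on the sir4-labelled array, 3 in the double null and 2 in the double null over the ubp10 null. Under quantile normalization they were 2, 2 and 1, and 7 in the ubp10 null. Under cyclic loess they were 1, 4 and 1, and 1 in the double null over the sir4-labelled array. A ratio of 1.5 gave 36 lower on the sir4-labelled array, 27 in the ubp10 null, 42 in the double null, 17 in the double null over the ubp10 null and 5 over the sir4-labelled array. The last count was 1 with the floor doubled, with the brightest probe set and with the centring on bright genes. Higher calls on the sir4-labelled array were 2 as deposited, 1 under quantile normalization, 2 at a ratio of 1.5 and 2 with the centring on bright genes. In the double null over the ubp10 null they were 9 as deposited, 4 under quantile normalization, 6 under cyclic loess, 3 with the floor doubled, 6 at a ratio of 1.5 and 5 with the centring on bright genes. That centring, on genes with a mean of at least 200 units, was chosen after seeing the data; it gave medians of -0.40 on the sir4-labelled array, -0.49 in the double null and 0.09 in the double null over the ubp10 null, with 1 and 4 lower in the first 2. Leaving the sir4-labelled array out of the quantile normalization, also chosen after seeing the data, gave medians of -0.44 in the ubp10 null, -0.25 in the double null and 0.21 in the double null over the ubp10 null, with 4 lower in the double null, 11 of the 13 ubp10 null calls kept, and 1 lower and 7 higher over the ubp10 null. LYS20 on the sir4-labelled array turned to 0.02 under cyclic loess. Of the calls, 8 of 13 in the ubp10 null held under every alternative run, 0 of 15 on the sir4-labelled array, 1 of 25 in the double null, 1 of 8 in the double null over the ubp10 null and 1 of 2 over the sir4-labelled array.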
